A study of Bos grunniens with 3 samples.

Results

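*S100A7*, *S100A8*, *S100A9* and *S100A12* were followed through the hair follicle cycle of the white yak. The 4 genes were taken by symbol from the 26924 genes of the count matrices, which list 12 other genes under an S100 symbol. Their identifiers in the matrices are ENSBGRG00000006114 (*S100A7*), ENSBGRG00000005058 (*S100A8*), ENSBGRG00000004994 (*S100A9*) and ENSBGRG00000005016 (*S100A12*). They were chosen by their UMI levels in these same libraries, catagen against anagen and telogen, so the differences between the stages are given as descriptions with no test.

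S100 proteins are small calcium-binding proteins, and these members are known as alarmins, proteins that signal damage or infection when they leave the cell. S100A8 and S100A9 join into the heterodimer calprotectin, which withholds zinc and manganese from microbes. S100A7 is the antimicrobial psoriasin of the skin surface, and S100A12 is a further ligand of the receptor RAGE. In skin they are made by keratinocytes that have left the basal layer, at levels that inflammation and wounding raise, and *S100A8*, *S100A9* and *S100A12* are also well known from neutrophils and monocytes.

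The samples were 3 10x Genomics single cell 3′ libraries of scapular skin from healthy Tianzhu white yaks (*Bos grunniens*) about 2 years old, 1 library each in anagen (growth), catagen (regression) and telogen (rest). Follicles were released with dispase and their cells with trypsin. The published study reports the anagen and catagen libraries, and its text does not report the telogen library. No genotype or treatment differs between the libraries, but the animals behind each are not stated, so animal and stage cannot be told apart, and the variation among animals is unknown for each value. The protocol text deposited with the catagen library names anagen, and its stage was taken from its title and stage label.

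The libraries held 51647865 to 103511775 unique molecular identifiers (UMIs, counted molecules) in 12000 to 14573 cell barcodes. The catagen library was the shallowest, with a median of 3339.5 UMIs per cell against 5251.5 in anagen and 5561 in telogen. The smallest barcode held 2404 UMIs in anagen and 500 in the others. Between 40 and 49 barcodes were shared by each pair of libraries. Only cells with 200 or more genes detected entered, and levels are UMIs per 1000000 UMIs (CPM) summed over the cells named. All intervals are exact 95% intervals, a share of up to a given value beside a count of 0 is what 3 counts would give, and both cover counting error only. S100 genes form a multigene family, and reads shared with a similar copy cannot be told apart in these counts.

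Suprabasal keratinocytes were taken as the cells with at least 1.5% of their UMIs from *KRT1* and *KRT10*, the keratin pair of differentiating epidermis, and are called *KRT1*+*KRT10*-rich. This gave 1988 anagen, 1977 catagen and 2564 telogen cells, or 16.6%, 16.4% and 17.7% of the kept cells. Within them *KRT1* stood at 18232, 18133 and 24183 CPM and *KRT10* at 14184, 19827 and 16957 CPM in the same order, as the selection fixes in part. A cut on a share marks a range of cells and not a cell type. Together the 4 S100 genes held 1.66% of the UMIs of these cells in anagen, 0.0862% in catagen and 1.15% in telogen.

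*S100A7* was the most abundant of the 4 genes by UMIs in all 3 libraries. Reads come from the 3′ end of each molecule, so UMIs need no scaling by gene length. It gave 347337 UMIs in anagen, 9837 in catagen and 295759 in telogen, or 4194, 191 and 2859 CPM over all kept cells. In the *KRT1*+*KRT10*-rich cells the levels were 15257 CPM in anagen (15198 to 15316), 713 CPM in catagen (697 to 728) and 10493 CPM in telogen (10451 to 10535). Catagen was thus 21.4-fold below anagen in these cells, and telogen lay near anagen, 1.45-fold below it.

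*S100A12* came next in UMIs, with 20543, 1716 and 21548 in anagen, catagen and telogen. Its levels over all kept cells were 248, 33.3 and 208 CPM. Within the *KRT1*+*KRT10*-rich cells it stood at 851 CPM in anagen (837 to 865), 88.6 CPM in catagen (83.1 to 94.2) and 670 CPM in telogen (659 to 681). The order of the libraries was that of *S100A7*, and catagen was 9.61-fold below anagen.

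Of the calprotectin subunits, *S100A8* gave 9163 UMIs in anagen, 868 in catagen and 9772 in telogen, or 111, 16.8 and 94.5 CPM over all kept cells. In the *KRT1*+*KRT10*-rich cells it reached 332 CPM in anagen (323 to 340), 37.3 CPM in catagen (33.8 to 41.0) and 294 CPM in telogen (287 to 301). Catagen was 8.90-fold below anagen. *S100A9* was the least abundant, with 4387, 614 and 3156 UMIs and 53.0, 11.9 and 30.5 CPM in the same order over all kept cells. In the *KRT1*+*KRT10*-rich cells it had 123 CPM in anagen (118 to 129), 23.6 CPM in catagen (20.9 to 26.7) and 78.3 CPM in telogen (74.7 to 82.1), and catagen was 5.21-fold below anagen. The intervals cover counting error alone and are narrow at these depths, and the genes were chosen by these levels. That the intervals of the libraries do not overlap thus says nothing about the spread between animals.

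**Figure D1:**
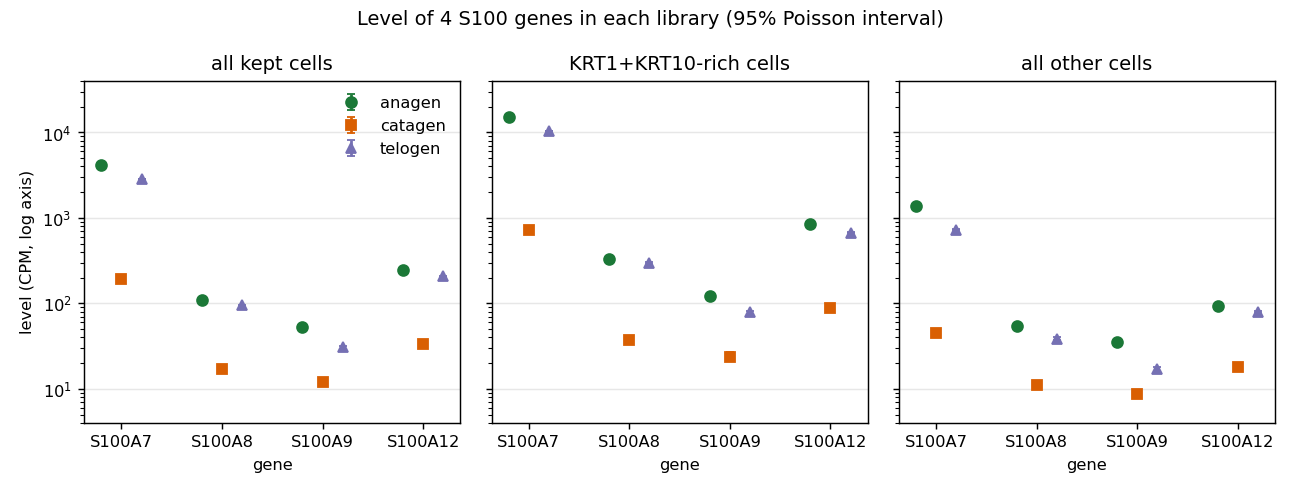
Levels of the 4 S100 genes in CPM on a log axis, over all kept cells, over *KRT1*+*KRT10*-rich cells and over all other cells. Points are the anagen, catagen and telogen libraries with exact 95% Poisson intervals, and catagen is the lowest point for each gene in each panel.

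The log2 ratio of catagen over anagen in the *KRT1*+*KRT10*-rich cells was -4.42 for *S100A7* (-4.45 to -4.39), -3.15 for *S100A8* (-3.30 to -3.01), -2.38 for *S100A9* (-2.57 to -2.20) and -3.26 for *S100A12* (-3.36 to -3.17). All 4 genes were at least 2-fold lower, as were 7.04% of the 5571 genes with at least 10 CPM in either library. The median over those genes was 0.01. Ranked from the lowest ratio, *S100A7* was at place 29, *S100A12* at 49, *S100A8* at 57 and *S100A9* at 91. Over all kept cells the ratios were -4.46, -2.72, -2.15 and -2.90 in the order *S100A7*, *S100A8*, *S100A9* and *S100A12*, where 3.95% of the 2152 genes with at least 50 CPM were at least 2-fold lower in catagen. The genes were chosen for this contrast, so these shares place them among all genes and support nothing further.

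Telogen over anagen gave log2 ratios in the same cells of -0.54 for *S100A7* (-0.55 to -0.53), -0.17 for *S100A8* (-0.22 to -0.12), -0.65 for *S100A9* (-0.75 to -0.56) and -0.35 for *S100A12* (-0.38 to -0.31). None of the 4 was at least 2-fold lower, against 8.97% of 5363 genes, and the median over those genes was -0.10. With the cut at 5% instead of 1.5% of UMIs, *S100A8* was higher in telogen than in anagen (0.96), as were *S100A9* (0.36) and *S100A12* (0.81). Against catagen, telogen was higher by 3.88 for *S100A7*, 2.98 for *S100A8*, 1.73 for *S100A9* and 2.92 for *S100A12*, and 7.15% of 5526 genes were at least 2-fold higher in that comparison. The comparisons share libraries and are not independent of each other.

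**Figure D2:**
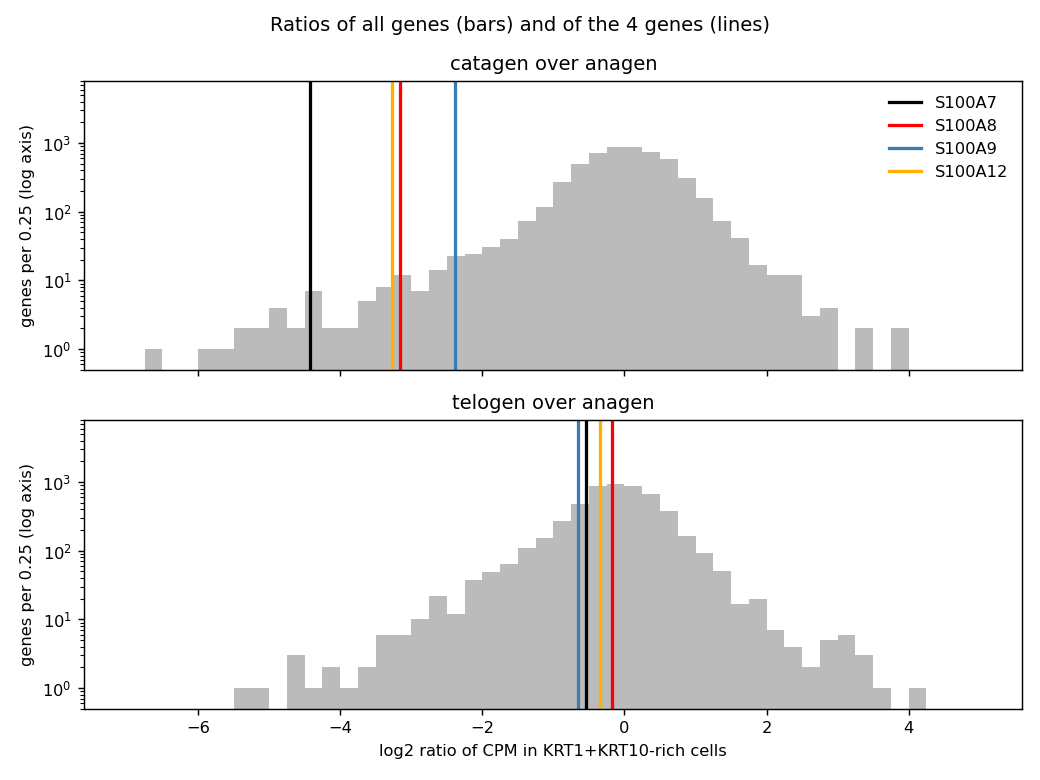
Number of genes, on a log axis, by log2 ratio of CPM in *KRT1*+*KRT10*-rich cells, for catagen over anagen (above) and telogen over anagen (below). Vertical lines mark the 4 S100 genes, which lie between -4.42 and -2.38 in the upper panel and between -0.65 and -0.17 in the lower.

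The share of *KRT1*+*KRT10*-rich cells with a UMI followed the levels. Cells were thinned at random to 1500 UMIs each, and 335 catagen and 327 telogen cells below that depth were left out. *S100A7* was then found in 88.2% of 1988 anagen cells (86.7 to 89.6%), 23.6% of 1642 catagen cells (21.5 to 25.7%) and 63.8% of 2237 telogen cells (61.8 to 65.8%). *S100A12* was found in 37.8%, 8.89% and 29.5%, *S100A8* in 23.2%, 3.78% and 17.8%, and *S100A9* in 12.7%, 3.84% and 8.58%. Catagen was the lowest library for each gene, with or without thinning. Without thinning the shares were 96.1%, 35.2% and 86.2% for *S100A7*, 63.0%, 23.8% and 49.8% for *S100A12*, 44.2%, 10.3% and 35.3% for *S100A8*, and 33.3%, 9.66% and 27.2% for *S100A9*.

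Droplets also hold RNA from other cells, and cells with endothelial genes (*PECAM1*, *CDH5*, *VWF*, *EMCN*) served as the background. In anagen 46.8% of 47 such cells had an *S100A7* UMI after thinning (32.1 to 61.9%), in telogen 33.3% of 27 (16.5 to 54.0%), and in catagen 0 of 11, which allows a share of up to 27.3%. The *S100A7* share of the *KRT1*+*KRT10*-rich cells lay above this background in anagen and telogen, and in catagen the few endothelial cells set no useful limit. Cells with genes of the mesenchymal list gave 0 of 38 in catagen, which allows up to 7.89%, below the 23.6% of the *KRT1*+*KRT10*-rich cells. The catagen cells of this list were marked mostly by the contractile genes *TAGLN* and *ACTA2* (1302 and 88 UMIs, against 9 of *COL1A2* and 4 of *COL3A1*), and most of the 17226 *TAGLN* UMIs of that library lay in other cells. For *S100A12* the endothelial share was 4.26% in anagen (0.520 to 14.5%) and 0 of 27 in telogen, which allows up to 11.1%, both below the share of the *KRT1*+*KRT10*-rich cells. The anagen endothelial shares of *S100A8* and *S100A9* were 4.26% (0.520 to 14.5%) and 2.13% (0.0539 to 11.3%). Against these few endothelial and mesenchymal list cells, some shares of the *KRT1*+*KRT10*-rich cells could not be told from background. In catagen these were *S100A8* and *S100A9* (3.78% and 3.84% against 0 of 38). In telogen they were *S100A9* (8.58% against 0 of 27) and *S100A8* (17.8% against 3.70%, 0.0937 to 19.0%). That *S100A8* share was above the 10% that 0 of 30 mesenchymal list cells allows. In catagen the *S100A12* interval, 7.56 to 10.4%, also reaches the limit of 7.89%. Cells that met no marker cut were more numerous, with 2417 in catagen and 2092 in telogen. Among them *S100A8* was found in 0.207% (0.0672 to 0.482%) and 2.92% (2.24 to 3.73%), and *S100A9* in 0.290% and 1.29%. Catagen *S100A12* was found in 1.12% of them. All these shares lay below those of the *KRT1*+*KRT10*-rich cells. In anagen the *S100A9* interval, 11.2 to 14.2%, overlaps that of the endothelial cells. It lies above that of the 101 anagen mesenchymal list cells (1.98%, 0.241 to 6.97%). Without thinning the median depth was 3823 UMIs in anagen endothelial cells, of which 78.7% had an *S100A7* UMI, and 7596 UMIs in *KRT1*+*KRT10*-rich cells.

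The *KRT1*+*KRT10*-rich cells held 74.1% of the *S100A7* UMIs of the anagen library, 81.5% in catagen and 80.1% in telogen. For *S100A12* this share was 69.9%, 58.0% and 70.2%, for *S100A8* 61.0%, 48.3% and 68.0%, and for *S100A9* 47.4%, 43.3% and 56.1%. *S100A9* was thus the gene least concentrated in these cells in each library. In all other cells together, *S100A7* stood at 1365, 45.2 and 727 CPM in anagen, catagen and telogen, *S100A8* at 54.1, 11.1 and 38.7 CPM, *S100A9* at 35.0, 8.64 and 17.2 CPM and *S100A12* at 93.8, 17.9 and 79.4 CPM.

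Levels differed with the share of *KRT1* and *KRT10*, with a different shape in each library and gene. In anagen *S100A7* went from 204 CPM in cells with under 0.1% of these keratins to 7296 CPM just outside the cut, at 1 to 1.5%, and 12055 CPM just inside it, at 1.5 to 2%. It was 17814 CPM at 3 to 5%, 17539 CPM at 5 to 8% and 15167 CPM in the 13 cells with at least 8%. In telogen it went from 322 CPM through 2617 CPM just outside and 4667 CPM just inside the cut to 17474 CPM in the 176 cells with at least 8%. In catagen it was 16.3 CPM at the low end, 362 CPM just outside and 133 CPM just inside the cut, and 1081 CPM at 5 to 8%. Of the 559 catagen *S100A7* UMIs just outside the cut, 217 came from 1 cell, and without it the level was 223 CPM. Levels did not rise at each step, since anagen *S100A9* was highest just inside the cut, at 140 CPM, and 102 CPM at 5 to 8%, and anagen *S100A8* was 362 CPM at 3 to 5% and 311 CPM at 5 to 8%. Catagen *S100A8* went from 14.8 CPM at 0.1 to 0.5% to 5.84 CPM at 1 to 1.5%. Anagen *S100A7* was thus already high in cells that the cut left out, and catagen *S100A7* was low at each share of keratin.

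All 4 genes were highest in telogen in the cells with at least 8% *KRT1* and *KRT10*. *S100A7* was at 17474 CPM in telogen (17287 to 17662), 15167 CPM in anagen (14459 to 15901) and 1069 CPM in catagen in these cells. In the same cells *S100A12* was at 2199 CPM in telogen (2133 to 2266), 776 CPM in the 13 anagen cells (622 to 956) and 153 CPM in the 40 catagen cells (108 to 210). *S100A8* was at 1000.3 CPM in the same telogen cells (956 to 1046), 203 CPM in anagen (129 to 304) and 64.3 CPM in catagen (36.7 to 104). *S100A9* was at 172 CPM in telogen (154 to 191), 26.5 CPM in anagen (5.46 to 77.3, from 3 UMIs) and 28.1 CPM in catagen (11.3 to 58.0). The anagen values rest on single cells, with 69 of the 88 *S100A12* UMIs and 21 of the 23 *S100A8* UMIs in 1 cell each, and without that cell they were 177 CPM (106 to 276) and 18.6 CPM (2.25 to 67.2). In the 40 catagen cells *S100A12* was 84.6 CPM without its highest cell. In the 176 telogen cells *S100A12* was 1819 CPM and *S100A8* 846 CPM, each without its highest cell. Just inside the cut the order was the other way, with *S100A12* at 719 CPM in anagen and 224 CPM in telogen. At 5 to 8% the 2 libraries were closer, with *S100A12* at 791 CPM in anagen and 984 CPM in telogen.

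**Figure D3:**
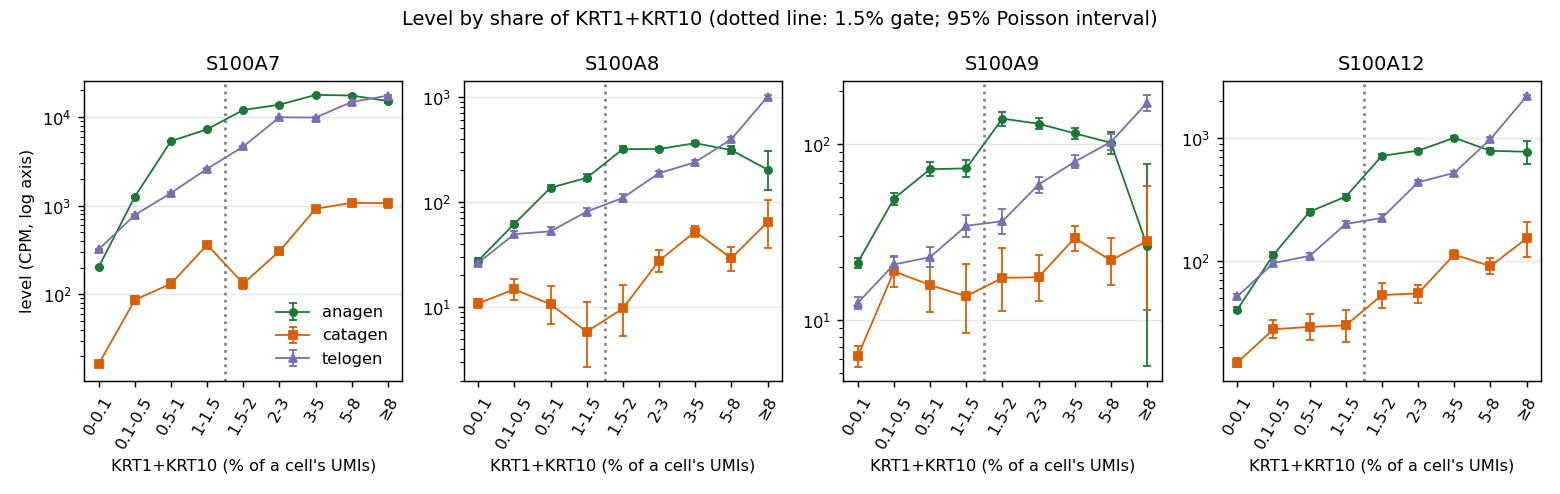
Level of each S100 gene in CPM on a log axis against the percent of a cell's UMIs from *KRT1* and *KRT10*, in 9 bins, for the 3 libraries with exact 95% Poisson intervals. The dotted line is the 1.5% cut, and telogen passes anagen at the right end for *S100A12* (2199 against 776 CPM, or 1819 against 177 CPM without the highest cell of each).

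The balance between the 4 genes differed between groups of cells. Cells outside the *KRT1*+*KRT10* cut were placed by keratin genes, first those with at least 1.5% of their UMIs from the inner root sheath keratins *KRT25*, *KRT27*, *KRT28* and *KRT71*, and later those with at least 1.5% from *KRT5*, *KRT14*, *KRT15* and *KRT17*, keratins of the basal layer and outer root sheath. These splits, and those below by *KRT77* and by single cells, were made after values had been seen. In the *KRT1*+*KRT10*-rich cells *S100A7* made up 92.1% of the UMIs of the 4 genes in anagen, 82.7% in catagen and 91.0% in telogen, and *S100A8* made up 2.00%, 4.32% and 2.55%.

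In the inner root sheath keratin cells, 159 in anagen, 118 in catagen and 61 in telogen, *S100A8* made up 44.6% (40.7 to 48.5%), 82.3% and 50.8% of the UMIs of the 4 genes. Without the cell highest in *S100A8* the shares were 34.9%, 75.2% and 14.6%. It gave 290 UMIs in anagen (149 CPM, 133 to 168), 242 in catagen (187 CPM, 164 to 212) and 369 in telogen (272 CPM, 245 to 301). The catagen level was therefore not below the anagen level here, with a log2 ratio of 0.32 (0.07 to 0.57), and these cells held 27.9% of all *S100A8* UMIs of the catagen library against 3.16% in anagen and 3.78% in telogen. *S100A9*, the partner subunit, gave 5, 1 and 5 UMIs in the same cells. *S100A7* in these cells was lower in catagen, at 162, 12.3 and 237 CPM in the 3 libraries. In telogen 193 of its 321 UMIs came from 1 cell, and without the highest cell the levels were 153, 10.3 and 103 CPM, which turns the order of telogen against anagen. *S100A12* was at 20.6, 27.0 and 23.6 CPM, or 19.0, 14.4 and 18.7 CPM without its highest cell. After thinning, *S100A7* was found in 37.7% of these cells in anagen and 24.1% in telogen. These are not above the endothelial shares of 46.8% and 33.3%, so they are not read as expression. The catagen share of 6.80% (2.78 to 13.5%) could not be told from background. The shares of *S100A8* among the 4 genes also move with these *S100A7* UMIs.

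These *S100A8* UMIs came from few cells. The cells with at least 5 *S100A8* UMIs numbered 9 in anagen, 11 in catagen and 5 in telogen and held 247, 220 and 360 *S100A8* UMIs, beside 0, 0 and 2 of *S100A9*. They held 2, 33 and 12 UMIs of *S100A12*. Without the single highest cell (98, 87 and 309 UMIs) the levels were 101 CPM in anagen (86.8 to 116), 125 CPM in catagen (106 to 147) and 45.8 CPM in telogen (34.9 to 58.9), which turns the order of telogen against both other libraries. After thinning, *S100A8* was found in 12.6% of these cells in anagen (7.86 to 18.8%) and 9.71% in catagen (4.75 to 17.1%). In telogen it was found in 5.56% (1.16 to 15.4%). These intervals overlap those of the endothelial cells, of which there were only 47, 11 and 27. Cells that met no marker cut had 6.10% in anagen (5.30 to 6.98%) and 0.207% in catagen (0.0672 to 0.482%). Both lie below the intervals of the inner root sheath keratin cells. In telogen they had 2.92% (2.24 to 3.73%), which lies within that interval.

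Cells outside the *KRT1*+*KRT10* cut were also ordered by their share of inner root sheath keratins. In catagen *S100A8* was 5.53 CPM in cells with under 0.1% of these keratins, 87.3 CPM at 1.5 to 5% and 314 CPM at 5 to 15% (268 to 366), or 168 CPM in the last bin without its highest cell, while *S100A7* was 48.2, 16.8 and 9.46 CPM in the same bins. In the 8 catagen cells above that share *S100A8* was 140 CPM (89.5 to 208) and *S100A12* 186 CPM (127 to 263), from 3 and 2 cells with a UMI, and without the highest cell they were 54.6 CPM (23.6 to 108) and 124 CPM (69.3 to 204). In anagen *S100A7* was lower at each step above 0.5%, from 469 to 54.1 CPM, and *S100A8* was 23.4 CPM at 0.5 to 1.5%, 122 CPM at 1.5 to 5%, 84.3 CPM at 5 to 15% and 442 CPM in the 6 cells above that. All 98 *S100A8* UMIs of those 6 cells lay in 1 cell, and 86 of the 151 at 1.5 to 5% lay in another, without which that bin was at 52.9 CPM (40.9 to 67.5). In telogen both genes were higher at 5 to 15% than at 1.5 to 5%, with *S100A7* at 457 against 103 CPM and *S100A8* at 681 against 32.0 CPM. Single telogen cells carried this, with 193 of 226 *S100A7* UMIs and 309 of 337 *S100A8* UMIs at 5 to 15%, and without the highest cell of each bin *S100A7* was 86.8 against 78.1 CPM and *S100A8* 62.3 against 6.61 CPM. Anagen *S100A9* was 38.8 CPM under 0.1%, 14.4 CPM at 0.1 to 0.5% and at most 9.25 CPM in the bins from 0.5% upward.

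**Figure D4:**
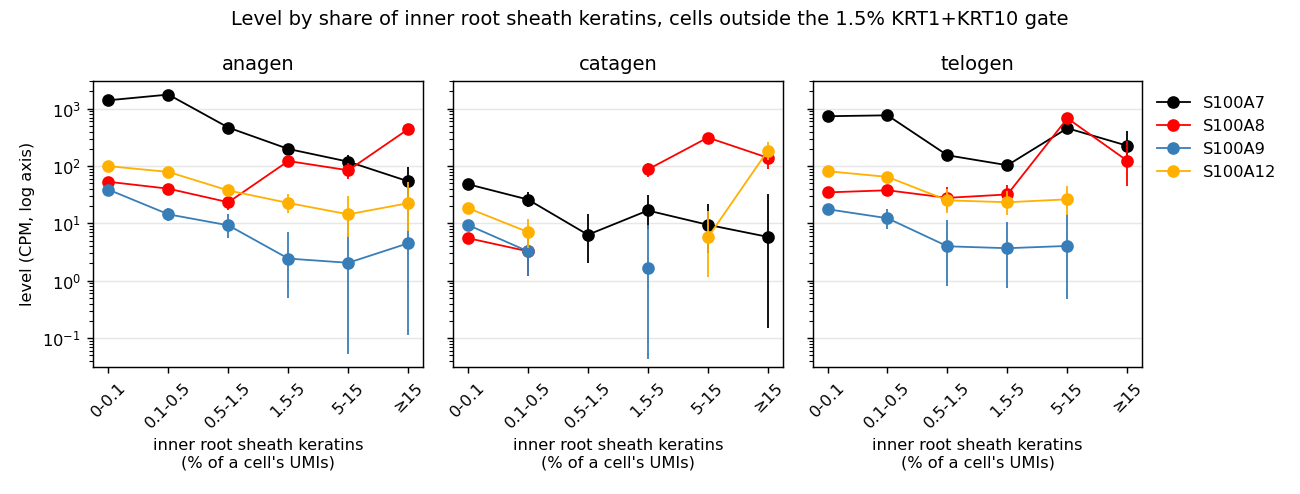
Level of the 4 S100 genes in CPM on a log axis against the percent of a cell's UMIs from *KRT25*, *KRT27*, *KRT28* and *KRT71*, in cells outside the *KRT1*+*KRT10* cut, with exact 95% Poisson intervals. Bins with 0 UMIs have no point. *S100A8* is higher than *S100A9* in each bin of anagen and telogen, and in catagen in each bin from 1.5% upward. Under 0.1% in catagen *S100A8* is lower (5.53 against 9.38 CPM).

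In the cells rich in *KRT5*, *KRT14*, *KRT15* and *KRT17* (5384 in anagen, 5888 in catagen and 8445 in telogen) the levels were 993, 32.0 and 517 CPM for *S100A7*, 57.1, 7.75 and 36.4 CPM for *S100A8*, 52.0, 13.1 and 20.5 CPM for *S100A9* and 108, 25.0 and 84.2 CPM for *S100A12*. Catagen was the lowest library for all 4 genes, with log2 ratios to anagen of -4.96, -2.88, -1.99 and -2.10. These cells held 39.2%, 50% and 38.7% of the *S100A9* UMIs of their libraries. Over all kept cells *S100A9* stood at 53.0, 11.9 and 30.5 CPM. It was thus not concentrated in these cells in anagen or telogen, and was little above the library level in catagen. *S100A9* made up 4.30% of the UMIs of the 4 genes here in anagen (4.11 to 4.51%), 16.9% in catagen and 3.12% in telogen and was 0.744%, 2.74% and 0.679% in the *KRT1*+*KRT10*-rich cells. It made up 2.92% in the anagen mesenchymal cells (1.74 to 4.58%), an interval that includes the anagen share. The share of these cells with a UMI after thinning was 40.5% for *S100A7* in anagen, which is not above the endothelial share of 46.8%, so it is not read as expression, although the highest of these cells held 969 *S100A7* UMIs. For *S100A9* it was 5.26% (4.68 to 5.89%), within the interval of the endothelial share. In anagen cells that met no marker cut it was 3.52% (2.92 to 4.22%).

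**Figure D5:**
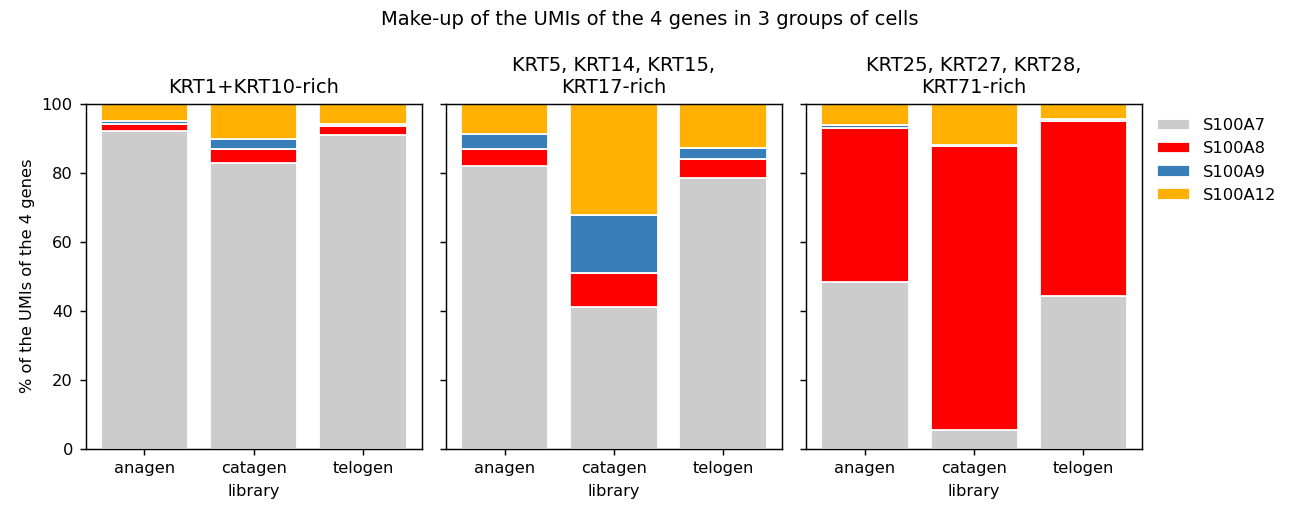
Percent of the UMIs of the 4 S100 genes taken by each gene, in *KRT1*+*KRT10*-rich cells, in cells rich in *KRT5*, *KRT14*, *KRT15* and *KRT17*, and in cells rich in the inner root sheath keratins, for the 3 libraries. *S100A8* takes 44.6%, 82.3% and 50.8% in the last group (34.9%, 75.2% and 14.6% without its highest cell) and 2.00%, 4.32% and 2.55% in the first. In the last group *S100A7* could not be told from background.

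Single cells could hold very large amounts of *S100A7*. The highest cell had 2063 *S100A7* UMIs in anagen, 217 in catagen and 7433 in telogen, which was 12.7%, 2.15% and 13.4% of all UMIs of that cell. The top 1% of cells held 28.7%, 64.0% and 46.0% of the *S100A7* UMIs of the library, 38.0%, 70.0% and 53.8% of *S100A8*, 29.2%, 44.6% and 33.5% of *S100A9*, and 37.1%, 39.1% and 47.7% of *S100A12*. Of the 10 cells highest in *S100A8*, 7 in anagen and 9 in telogen were *KRT1*+*KRT10*-rich, whereas 8 in catagen were inner root sheath keratin cells and 2 were *KRT1*+*KRT10*-rich. A single *KRT1*+*KRT10*-rich catagen cell with 11795 UMIs held 95 UMIs of *S100A8*, 29 of *S100A9*, 137 of *S100A12* and 8 of *S100A7*, and it was the highest catagen cell for the first 3 genes. With the 10 highest cells of each gene left out of both libraries, the ratio of catagen over anagen was -4.56 for *S100A7*, -3.66 for *S100A8*, -2.62 for *S100A9* and -3.61 for *S100A12*.

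The genes were found together in single cells more often than the product of their shares. Among the thinned *KRT1*+*KRT10*-rich cells, *S100A8* and *S100A9* were both found in 126 anagen, 7 catagen and 92 telogen cells, or 2.15, 2.94 and 2.69 times the product. *S100A8* and *S100A12* were both found in 333, 14 and 257 cells, or 1.91, 2.54 and 2.18 times the product. *S100A9* and *S100A12* were at 1.75, 1.43 and 2.24 times the product. Pairs with *S100A7* were at 1.08 to 1.12 times the product in anagen, 1.21 to 1.57 in catagen and 1.35 to 1.40 in telogen. *S100A7* was found in 88.2% of the anagen cells, which leaves this ratio little room there, so the ratios do not rank the libraries. In anagen 98.9%, 95.6% and 96.9% of the cells with *S100A8*, *S100A9* and *S100A12* also had *S100A7*. The same values were 37.1%, 28.6% and 32.9% in catagen and 89.5%, 86.5% and 85.9% in telogen. In anagen 72.1% of the cells with *S100A8* also had *S100A12*, against 22.6% in catagen and 64.4% in telogen. The correlation of *S100A7* with *S100A12* across cells, on log-normalized values, was 0.41 in anagen, 0.07 in catagen and 0.47 in telogen. The cells span a range of keratin shares, and no other pairs of genes were compared. Cells of a library share its depth and background RNA, and the catagen counts are sparse, so these values are a description only.

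*KRT77*, a keratin that is found in part of the suprabasal epidermis, showed its largest split of the *KRT1*+*KRT10*-rich cells for *S100A7* in catagen. After thinning, *S100A7* was at 1687 CPM in the 317 catagen cells with a *KRT77* UMI and at 290 CPM in the 1325 without, a 5.82-fold difference, with a log2 ratio of 2.54 (2.38 to 2.70). In anagen the levels were 20504 CPM in 201 cells and 12814 CPM in 1787 cells (0.68, 0.64 to 0.72), and in telogen 12111 CPM in 78 cells and 9452 CPM in 2159 cells (0.36, 0.28 to 0.43). The other members went the other way in anagen. *S100A9* was at 46.4 against 118 CPM (-1.34, -2.23 to -0.58), *S100A12* at 527 against 820 CPM (-0.64, -0.88 to -0.40) and *S100A8* at 222 against 307 CPM (-0.47, -0.85 to -0.11). In telogen *S100A8* was at 94.0 against 272 CPM (-1.53, -2.54 to -0.69). The telogen ratios of *S100A9* and *S100A12* were -1.03 and -0.27, with intervals that include 0. In catagen the ratios of *S100A8*, *S100A9* and *S100A12* were 0.54, 0.09 and -0.18, with intervals that include 0. *KRT77* itself was at 111 CPM in anagen, 410 CPM in catagen and 32.2 CPM in telogen in the *KRT1*+*KRT10*-rich cells, so the split takes a different share of cells in each library.

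Other genes of the S100 family did not all follow the 4. Of the 12 others, 4 had at least 10 CPM in the *KRT1*+*KRT10*-rich cells of anagen or catagen, and 1 of these, *S100A2*, a gene of basal and outer sheath keratinocytes, was at least 2-fold lower in catagen, with 1239 CPM in anagen, 359 in catagen and 1781 in telogen. *S100A16* had 908, 550 and 820 CPM, *S100A10* 68.1, 113 and 161 CPM and *S100A4* 26.0, 28.8 and 122 CPM. Of these 4 genes, 2 were higher and 2 lower in catagen than in anagen. *PGLYRP4* encodes a peptidoglycan recognition protein, and the gene stands beside *S100A9* in the RefSeq annotation of another yak assembly (Bosgru_T2T1.0). It had 1.42, 2.13 and 1.51 CPM in the *KRT1*+*KRT10*-rich cells.

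Genes to set beside the 4 were taken from 5 lists with 88 genes, of which 52 had a row. The lists were of alarmin receptors (6 genes), keratinocyte activation, cytokine receptors, transcription regulators and the cornified envelope. At 10 CPM in either library, 26 could be compared between catagen and anagen in the *KRT1*+*KRT10*-rich cells. Of these, 1 was at least 2-fold lower in catagen (*IL1A*) and 2 were at least 2-fold higher (*IL20RA* and *FOS*), against 7.04% lower and 5.87% higher over all genes. For telogen against anagen 24 could be compared, of which 9 were at least 2-fold lower (*IL1A*, *CCL20*, *TNFAIP3*, *NFKBIZ*, *KLF4*, *JUN*, *GRHL3*, *ZNF750* and *SBSN*) and 1 was higher (*CNFN*), against 8.97% and 4.03%. Between catagen and anagen the list genes lay mostly within 2-fold, as did most of all genes, so this is not read as a result about the lists. With no minimum level, 9 of 47 were lower in catagen and 8 higher. In telogen 9 of 24 were at least 2-fold lower, where the 4 S100 genes were within 2-fold of anagen.

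All levels of list genes here and below are from the *KRT1*+*KRT10*-rich cells alone. Of the receptors, *AGER*, which encodes RAGE, had 0.830, 1.69 and 0.531 CPM in anagen, catagen and telogen, from 12 to 19 UMIs each. *TLR4*, the receptor through which S100A8 is known to act, had 0.830, 0.178 and 0.930 CPM, from only 14, 2 and 21 UMIs. *NPTN*, a receptor described for S100A8 on keratinocytes, was the only measured alarmin receptor of the list above 10 CPM, with 34.7, 49.3 and 46.5 CPM. *BSG*, also on the list, had no row by symbol and could not be measured. *CD36* and *MCAM*, further receptors of the list, gave 0 or 1 UMI in the *KRT1*+*KRT10*-rich cells of each library. Receptor levels in other cells were not examined.

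Cytokines of activated keratinocytes were also read in the *KRT1*+*KRT10*-rich cells. Among them *IL1A*, an interleukin that is itself an alarmin, had 42.4 CPM in anagen, 4.89 in catagen and 2.39 in telogen. It was lowest in telogen, where the 4 S100 genes were near their anagen levels. *CCL20*, a chemokine for T cells and dendritic cells, had 821, 549 and 214 CPM, and *IL18*, an inflammasome cytokine, had 41.7, 57.3 and 80.1 CPM. The receptors *IL1R1* (36.7, 46.9 and 25.9 CPM), *IL1R2* (110, 107 and 96.8 CPM), a decoy for interleukin 1, and *IFNGR1* (55.0, 46.4 and 41.2 CPM), for interferon gamma, lay within 2-fold of anagen in both other libraries.

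Transcription regulators were read in the same *KRT1*+*KRT10*-rich cells. *KLF4*, a driver of barrier formation, had 872, 921 and 363 CPM, *JUN* 3063, 4555 and 1523 CPM and *FOS* 917, 2292 and 1137 CPM. *JUN* and *FOS* encode subunits of the transcription factor AP-1. All 3 were higher in catagen than in anagen. Of the cornified envelope list, *SBSN* had 6820, 4619 and 3361 CPM, *KRTDAP*, a keratinocyte differentiation protein, 9982, 5733 and 9862 CPM, and *CNFN*, a late envelope protein, 23.4, 42.6 and 57.2 CPM. The differences between catagen and anagen for these genes were all under 2-fold apart from *FOS*.

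Across 27 points, the 9 keratin bins in each of the 3 libraries, the genes whose log2(CPM + 1) was most like that of *S100A7* among 2408 genes were *TECR* (r = 0.95), *S100A16* (0.94), *TGIF2-RAB5IF* (0.93), *CAPZA2* (0.92) and *TMEM65* (0.92). *TECR* acts in the making of very long chain fatty acids. The genes most like *S100A12* were *S100A16*, *CAPZA2*, *TECR*, *TMEM65* and *CNBP* (0.94 to 0.92), and those most like *S100A8* were *CNBP*, *TECR*, *TMEM65*, *TGIF2-RAB5IF* and *S100A16* (0.94 to 0.91). *S100A9* had another set, led by *PLIN3*, a lipid droplet protein (0.90), and *PPIF* (0.88), then *YWHAH*, *RAB7A* and *CNBP* (0.86 to 0.85). Between the members r was 0.98 for *S100A8* with *S100A12*, 0.97 for *S100A7* with *S100A12* and 0.89 for *S100A7* with *S100A9*. The members were chosen by their levels in catagen against anagen and telogen, so high values between them are in part fixed by that choice. The points of a library share cells of 1 sample, and the bins order them by keratin. In the *KRT1*+*KRT10*-rich cells *PLIN3* had 113, 20.9 and 59.9 CPM in anagen, catagen and telogen.

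Neutrophils and monocytes are rich in *S100A8*, *S100A9* and *S100A12*, so 14 myeloid genes were followed, of which 11 had a row. In the *KRT1*+*KRT10*-rich cells they summed to 95.2 CPM in anagen, 68.4 in catagen and 134 in telogen, nearly all from *CSF3R* (68.9, 59.5 and 76.1 CPM) and *AIF1* (20.2, 6.49 and 54.7 CPM). Of the other 9, the highest was *CD14* in anagen with 3.50 CPM. Several defining genes were at or near 0, where *PTPRC* gave 0, 1 and 3 UMIs, *ITGAM* 1, 0 and 0, and *LYZ* and *MPO* 0 in these cells of each library. They were rare in the whole libraries too, with *PTPRC* at 24, 18 and 52 UMIs, *ITGAM* at 2, 0 and 0, *LYZ* at 0, 2 and 4, and *MPO* at 0. Counts near 0 therefore cannot show whether myeloid RNA was present in the *KRT1*+*KRT10*-rich cells. The sums of lymphoid markers were 0.652, 0.267 and 0.576 CPM, of endothelial markers 1.01, 0.445 and 0.974 CPM, and of mesenchymal markers 43.6, 19.4 and 30.5 CPM in the same cells. The lymphoid and endothelial sums rest on few UMIs, led by *CORO1A* (8, 2 and 8) and *PECAM1* (13, 4 and 10), and do not rank the libraries. The mesenchymal sums were mostly *TAGLN* (446, 218 and 665 UMIs), with 237, 0 and 8 UMIs of *COL1A2*. Catagen had the lowest sum for the myeloid and mesenchymal lists. The part of other cell types in the differences of the S100 genes was not tested.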

How the data were processed

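The authors deposited raw UMI counts per gene and cell barcode for each library, made by Cell Ranger from 10x Genomics reads. The submitters' processing notes name version 2.1.1, whereas the headers of the matrices name 4.0.0 (anagen), 3.1.0 (catagen) and 6.0.2 (telogen), and the genome build is not given in the sources used here. By the headers each library has its own version, so version and stage cannot be told apart either. Cells with at least 200 genes were kept, and doublets were left in, with the top 5% of cells by UMIs left out as an alternative. UMIs were summed per library and group of cells and given as CPM. Levels carry exact Poisson intervals, ratios exact intervals conditional on the sum of both counts, and shares of cells exact Clopper-Pearson intervals, all at 95%. With 1 library per stage no p-value was computed. Counts from all cells of a group were used at their full depth for levels, and each cell was thinned to 1500 UMIs for shares of cells.

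Groups of cells were cut from marker shares in a fixed order. The cut was at least 1.5% of UMIs for keratin sets, apart from 0.5% for *KRT79* and for *KRT77*, and 0.1% for mitotic genes. For endothelial, mesenchymal, myeloid and lymphoid genes it was at least 3 UMIs from at least 2 genes. In gene lists the 3 genes with the highest CPM were named, plus each gene counted as at least 2-fold different. For each member the 5 genes most like it were named. The members, lists and cuts were chosen with earlier results of these data known. The steps were tested on simulated counts. Python 3.11.15 with numpy 2.4.6, pandas 2.3.3 and scipy 1.17.1 was used.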

Additional observations from a re-analysis of the deposited data

How the results depend on the processing

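No paired analysis was possible because each stage has 1 library. Of 120 alternative ratios, 117 kept their direction and 3 reversed, all telogen over anagen in *KRT1*+*KRT10*-rich cells with a cut of 5%. A ratio counted as moved where it left the counting interval of the reported value, which is narrow at these depths. The alternatives with the 10 highest cells or shared barcodes left out, and those that leave out the highest cell of a group or bin, were chosen after seeing the data. The cause of each move was not tested.

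Catagen over anagen in *KRT1*+*KRT10*-rich cells moved to -4.32 (*S100A7*) and -3.11 (*S100A12*) with a cut of 0.5%, and to -4.01 (*S100A7*), -2.12 (*S100A9*) and -3.02 (*S100A12*) with a cut of 5%. *S100A7* moved to -4.35 with at least 1000 genes per cell and to -4.56 with the mean of each cell's CPM. With the top 5% of cells by UMIs left out the values were -4.69 (*S100A7*), -3.40 (*S100A8*) and -3.37 (*S100A12*), and with the 10 highest cells of each gene left out -4.56 (*S100A7*), -3.66 (*S100A8*), -2.62 (*S100A9*) and -3.61 (*S100A12*). Over whole libraries it moved to -4.25 (*S100A7*), -2.54 (*S100A8*) and -2.28 (*S100A9*) with at least 1000 genes per cell, and to -4.75 (*S100A7*), -3.14 (*S100A8*) and -3.00 (*S100A12*) with the mean of each cell's CPM.

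Telogen over anagen in *KRT1*+*KRT10*-rich cells moved to -0.77 (*S100A7*), -0.40 (*S100A8*), -0.87 (*S100A9*) and -0.49 (*S100A12*) with a cut of 0.5%. With a cut of 5% it was -0.15 (*S100A7*), and it reversed to 0.96 (*S100A8*), 0.36 (*S100A9*) and 0.81 (*S100A12*). *S100A7* moved to -0.58 with at least 1000 genes per cell, to -0.53 with at least 2404 UMIs per cell, the smallest anagen total, and to -0.55 with shared barcodes left out. The mean of each cell's CPM gave -0.58 (*S100A7*), -0.23 (*S100A8*) and -0.38 (*S100A12*), and median-of-ratios scaling gave -0.46 (*S100A7*), -0.091 (*S100A8*) and -0.26 (*S100A12*). With the top 5% of cells by UMIs left out it was -0.69 (*S100A7*), -0.36 (*S100A8*) and -0.53 (*S100A12*), and with the 10 highest cells left out -0.64 (*S100A7*), -0.36 (*S100A8*) and -0.54 (*S100A12*). Over whole libraries it moved to -0.63 (*S100A7*), -0.29 (*S100A8*), -0.88 (*S100A9*) and -0.34 (*S100A12*) with at least 1000 genes per cell, to -0.46 (*S100A7*), -0.71 (*S100A9*) and -0.15 (*S100A12*) with the mean of each cell's CPM, and to -0.41 (*S100A7*), -0.083 (*S100A8*), -0.65 (*S100A9*) and -0.11 (*S100A12*) with median-of-ratios scaling.

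The shares of *KRT1*+*KRT10*-rich cells with a UMI depend on depth. In anagen, catagen and telogen they were 96.1%, 35.2% and 86.2% (*S100A7*), 44.2%, 10.3% and 35.3% (*S100A8*), 33.3%, 9.66% and 27.2% (*S100A9*) and 63.0%, 23.8% and 49.8% (*S100A12*) without thinning. Thinned to 3000 UMIs they were 91.8%, 32.8% and 70.0% (*S100A7*), 30.8%, 7.02% and 25.8% (*S100A8*), 20.6%, 6.47% and 15.5% (*S100A9*) and 49.2%, 16.3% and 37.9% (*S100A12*). With no minimum level, 9 list genes were at least 2-fold lower and 8 higher in catagen than in anagen, and 4 were higher in telogen. Without the highest *S100A8* cell, the inner root sheath keratin cells had 101 CPM in anagen, 125 CPM in catagen and 45.8 CPM in telogen.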
